A study of Homo sapiens with 9 samples.

Results

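The COMMD family genes were followed by RNA sequencing of 9 libraries from Kasumi-1, a cell line grown from a human acute myeloid leukaemia. It bears the t(8;21) translocation, which makes the AML1-ETO fusion (AE, RUNX1-RUNX1T1). The members are the rows COMMD1 to COMMD10 of each deposited count file, chosen by symbol alone, and they make up 10 of the 59648 genes listed. The family was put forward with results of these libraries already known, so its counts and medians are a description of these libraries and support nothing by themselves. All 10 members passed the filter on low counts, which left 14741 genes for testing, and no member had fewer than 147 counts in any library. The 3 other rows whose symbol starts with COMMD (the pseudogenes COMMD4P1 and COMMD4P2, and the readthrough COMMD3-BMI1) never held more than 1 count and were left aside.

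The 3 groups of 3 libraries were AE knockdown (AE shRNA 1, 2 and 3), LYL1 knockdown (LYL1 shRNA 538, 540 and 542) and control shRNA (replicates 1, 2 and 3). LYL1 is a basic helix-loop-helix transcription factor of blood cells. Cells of all 3 groups, controls included, received an shRNA lentivirus, spent 48 h without and 48 h with 1 µg/mL puromycin, and were sampled on day 4. The labels do not say whether AE numbers stand for separate hairpins or for repeats, nor whether libraries came from separate cultures, so a p-value here reflects the spread among these libraries, which may be technical. Everything was measured in a single cell line, and the knockdowns were partial.

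COMMD proteins share a carboxy-terminal COMM domain, through which they pair with each other. The 10 of them assemble into a ring, which joins CCDC22, CCDC93 and DENND10 in the CCC complex. CCC and the Retriever trimer (VPS35L, VPS26C and VPS29) together form Commander, an endosomal machine that returns membrane receptors chosen by the adaptor SNX17 to the cell surface. COMMD1, the founding member, is the gene lost in a copper storage disease of dogs, and is also known as a brake on NF-kB through the removal of RELA.

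Library totals ranged from 20103275 to 28039518 counts. RUNX1T1, the ETO part of the fusion, was at 114, 137 and 87.7 CPM in the AE knockdown libraries, against 215, 223 and 212 CPM in the control libraries, where CPM is the count scaled to the library total after TMM scaling. On the log2 scale the difference was -0.94, with an SE of 0.18 (edgeR adjusted p = 0.00778). RUNX1, whose count joins the fusion and the normal gene, differed by -0.76 (edgeR adjusted p = 0.0119), a call lost without control replicate 1 or 2. LYL1 was at 80.4, 98.4 and 43.9 CPM with shRNAs 538, 540 and 542, against 172, 172 and 143 CPM in the control libraries; all 3 lay below the controls, but the difference of -1.13 on the log2 scale was not called (edgeR adjusted p = 0.527, DESeq2 adjusted p = 0.0202). The spread between libraries, as a biological coefficient of variation, was 31.5% with AE knockdown, 20.9% with LYL1 knockdown and 7.57% in the controls. AE knockdown replicate 3 stood apart: mitochondrial ribosomal RNA took 1.21% of its counts and ribosomal protein rows 12.0%, against at most 0.791% and 7.99% in the other 8 libraries. Ribosomal protein rows here are those whose symbol starts with RPL or RPS and a digit, which also matches pseudogenes and leaves out RPLP0. Of markers of other cells, COL1A1 (fibroblast) and ALB (hepatocyte) never exceeded 2 counts, CD3E (T cell) 18 counts and EPCAM (epithelium) 31 counts, while the myeloid marker CD33 held at least 662 counts in every library. Of 5 myeloblast markers, CD33 (log2 fold change 2.01, edgeR adjusted p = 0.00103) and PTPRC (1.35, edgeR adjusted p = 0.019) were higher with AE knockdown than in the controls, and KIT, CD34 and MPO were not called; the call of PTPRC was lost without any 1 control or without AE knockdown replicate 3.

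In the deposited counts, 7 of the 10 COMMD genes were higher with AE knockdown than with control shRNA, none was lower, and 3 were not called. The 7 were COMMD1, COMMD3, COMMD4, COMMD5, COMMD6, COMMD8 and COMMD9. Over all genes tested, 21.8% were called in this comparison, 11.4% as higher and 10.4% as lower, at an edgeR adjusted p below 0.05. The median log2 fold change of the 10 members was 0.64, against 0.05 for all genes tested. For the same 7 members every AE knockdown library lay above every control library, which held for 23.1% of all genes tested. Without AE knockdown replicate 3 the same 7 members were called, among 17.2% of all genes tested. Leaving out control replicate 1, 2 or 3 instead left 4, 3 and 3 members called, among 7.2%, 6.31% and 6.89% of all genes tested. In bulk libraries such as these, a change in the share of cells of a kind and a change in RNA per cell cannot be told apart. With LYL1 knockdown no member was called, in a comparison that called 0.0136% of all genes tested.

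**Figure D1:**
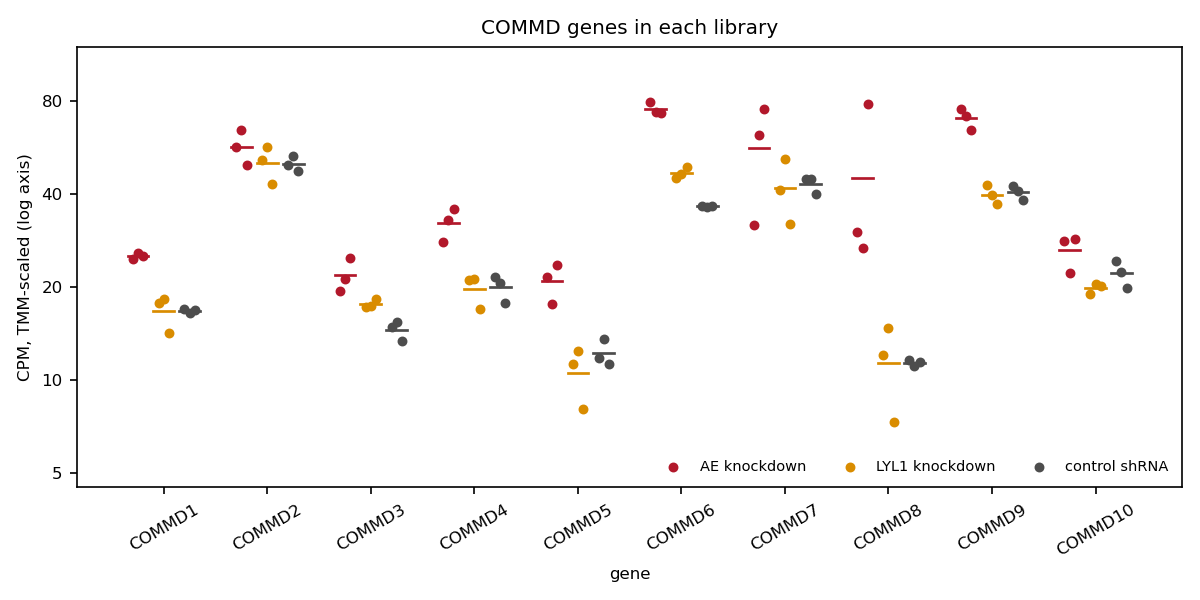
Each point is the level of a COMMD gene in a library, in CPM after TMM scaling on a log axis, with AE knockdown in red, LYL1 knockdown in orange and control shRNA in grey; short lines are group means (n = 3 each). COMMD8 spans 26.7 to 78.4 CPM with AE knockdown and 11.1 to 11.6 CPM in the controls, while COMMD2, COMMD7 and COMMD10 overlap between those groups.

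The windows before 4 of the transcription starts are shown here because these genes span the range of response: COMMD8 had the largest difference of the family, COMMD6 and COMMD9 were, like it, called with AE knockdown under every setting run, and COMMD2 was not called. Sequences are from RefSeq, build GRCh38.p14, 250 bases up to the annotated start, on the strand of the gene (minus for all 4), at chr4:47463703-47463952 (COMMD8), chr13:75549440-75549689 (COMMD6), chr11:36289425-36289674 (COMMD9) and chr3:149752490-149752739 (COMMD2). Capitals mark a match to one of the motifs described next.
COMMD8: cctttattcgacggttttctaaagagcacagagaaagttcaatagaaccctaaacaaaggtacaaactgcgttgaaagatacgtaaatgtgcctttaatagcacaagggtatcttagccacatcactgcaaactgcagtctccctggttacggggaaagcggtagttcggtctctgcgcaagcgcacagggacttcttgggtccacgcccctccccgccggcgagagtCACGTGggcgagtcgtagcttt
COMMD6: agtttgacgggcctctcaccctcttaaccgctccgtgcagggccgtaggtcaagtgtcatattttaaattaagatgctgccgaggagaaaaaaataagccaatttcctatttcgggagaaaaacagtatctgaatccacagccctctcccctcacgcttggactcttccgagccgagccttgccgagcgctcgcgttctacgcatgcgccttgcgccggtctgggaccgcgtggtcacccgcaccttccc
COMMD9: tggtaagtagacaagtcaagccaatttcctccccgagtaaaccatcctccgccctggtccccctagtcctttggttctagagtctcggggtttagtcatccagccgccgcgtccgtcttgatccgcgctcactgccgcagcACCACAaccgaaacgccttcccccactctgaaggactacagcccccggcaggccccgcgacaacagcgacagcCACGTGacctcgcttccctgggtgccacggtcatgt
COMMD2: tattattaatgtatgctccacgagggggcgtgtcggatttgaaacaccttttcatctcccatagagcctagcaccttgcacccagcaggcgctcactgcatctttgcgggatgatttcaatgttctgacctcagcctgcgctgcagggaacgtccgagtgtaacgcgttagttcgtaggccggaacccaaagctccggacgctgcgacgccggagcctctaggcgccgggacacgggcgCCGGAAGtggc

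RefSeq windows were at hand for 9 of the 10 members, 14 windows in all because COMMD1, COMMD6 and COMMD10 have several starts; COMMD5 was not analysed here. Motifs were sought on both strands. The core RUNX motif TGTGGT lay in 2 of the 14 windows, among them that of COMMD9 (capitals ACCACA, its reverse complement), and TGCGGT in 3; these occur in 11% and 5.84% of all 35116 windows. The E-boxes CAGCTG and CAGATG, forms described for factors of the class of LYL1, lay in 4 of the 14 windows and in none, against 14% and 12.2% of all windows. The ETS motif CCGGAAG lay in 2 of the 14 windows, that of COMMD2 being one, against 8.52% of all windows. The palindrome CACGTG, another E-box, was searched only after the windows had been read. It lay in 5 of the 14 windows, those of COMMD3, COMMD4, COMMD8, COMMD9 and COMMD10, against 6.34% of all windows. Of these 5 genes COMMD10 was not called with AE knockdown against control. Of the genes whose windows lack CACGTG, COMMD1 and COMMD6 were called, and COMMD2 and COMMD7 were not. The windows of COMMD6 hold none of the motifs. The matches describe letters in these windows only.

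COMMD8 had the largest difference of the family. In mouse B cells COMMD8 forms a pair with COMMD3 that is known to assist chemoattractant receptor signalling. COMMD8 was at 30.2, 26.7 and 78.4 CPM in the AE knockdown libraries, against 11.6, 11.1 and 11.4 CPM in the control libraries. Every AE knockdown library was above every control, and replicate 3 was 2.94 times as high as replicate 2. The fitted log2 fold change came to 1.98, or 3.95-fold (SE 0.40, edgeR adjusted p = 0.00934). Replicate 3 is also the library with the high mitochondrial and ribosomal protein shares; without it the log2 fold change was 1.31 (edgeR adjusted p = 0.00432).

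COMMD3, its partner in that pair, was at 19.4, 21.3 and 24.9 CPM with AE knockdown, against 14.9, 15.4 and 13.4 CPM in controls. The groups did not overlap, and the log2 fold change came to 0.58 (SE 0.15, edgeR adjusted p = 0.0211). COMMD3 is followed on chromosome 10 by BMI1, a Polycomb gene, and a readthrough transcript joins them; reads from it cannot be told apart from those of either gene, although the readthrough row was listed at 0 in all 9 libraries. BMI1 itself was at 34.5 ± 8.14 CPM with AE knockdown and 45.3 ± 0.76 CPM in controls (SD, n = 3 each), a log2 difference of -0.39 that was not called (edgeR adjusted p = 0.113). All AE knockdown libraries lay below all controls for BMI1, as for 3268 of the 14741 genes tested.

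COMMD6 had the smallest adjusted p and the smallest standard error of the family. Its human protein is the shortest member and consists of little more than the COMM domain. COMMD6 stood at 79.7, 74.0 and 73.6 CPM with AE knockdown, against 36.7, 36.5 and 36.6 CPM in controls. The 2 groups lay far apart relative to their spread, with the log2 fold change at 1.05, or 2.07-fold (SE 0.12, edgeR adjusted p = 0.00103).

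COMMD9, which in mice is needed for the surface return of Notch, was at 75.8, 71.8 and 64.7 CPM with AE knockdown, against 42.5, 40.9 and 38.4 CPM in controls. All AE knockdown libraries were again above all controls, with replicate 3 the lowest of them here. The log2 fold change came to 0.80, or 1.74-fold (SE 0.13, edgeR adjusted p = 0.00386).

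COMMD1, the copper and NF-kB member, was at 24.7, 25.8 and 25.3 CPM with AE knockdown, against 17.0, 16.5 and 16.8 CPM in controls. Its AE knockdown libraries were the most alike of any member, within 1.04-fold of each other. The log2 fold change came to 0.59, or 1.51-fold (SE 0.14, edgeR adjusted p = 0.0177).

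COMMD4 was at 28.1, 33.0 and 35.8 CPM with AE knockdown, against 21.5, 20.7 and 17.8 CPM in controls (log2 fold change 0.69, SE 0.16, edgeR adjusted p = 0.0138). Reads of COMMD4 could also be drawn from its near-identical pseudogenes, which makes its count uncertain. COMMD5, first described as a calcium-regulated gene of hypertensive rats, stood at 21.6, 17.7 and 23.6 CPM with AE knockdown, against 11.8, 13.6 and 11.3 CPM in controls (log2 fold change 0.78, SE 0.19, edgeR adjusted p = 0.0193). Neither gene overlapped between AE knockdown and control. These 2 genes, COMMD1 and COMMD3 were the called members whose call was lost under some settings, fits without a control replicate among them. Without control replicate 1, 2 or 3 the family had 4, 3 and 3 calls, while 7.2%, 6.31% and 6.89% of all genes tested were called.

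The 3 remaining members overlapped between the groups. COMMD7, which is known to lower NF-kB activity, was at 31.8, 62.1 and 75.3 CPM with AE knockdown, against 45.0, 45.0 and 40.1 CPM in controls: replicate 1 was below all controls and the other 2 were above them. Its log2 fold change was 0.38 with a 95% interval of -0.23 to 0.98 (edgeR adjusted p = 0.34). Without AE knockdown replicate 1 it was 0.66 and called (edgeR adjusted p = 0.0428), which brought the family to 8 calls, while 20.3% of all genes tested were called in that fit, 10.5% as higher.

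COMMD2 was at 56.8, 64.8 and 49.6 CPM with AE knockdown, against 49.7, 53.3 and 47.7 CPM in controls, with replicate 3 inside the control range. Its log2 fold change of 0.18 had a 95% interval of -0.14 to 0.51 (edgeR adjusted p = 0.39). COMMD10, which in mouse macrophages is known to take part in the maturation of phagosomes, stood at 28.1, 22.3 and 28.6 CPM with AE knockdown, against 24.4, 22.4 and 19.9 CPM in controls (log2 fold change 0.25, 95% interval -0.09 to 0.58, edgeR adjusted p = 0.261). For these 3 members a difference was not detectable at this spread, and the intervals do not show that the levels were alike.

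**Figure D2:**
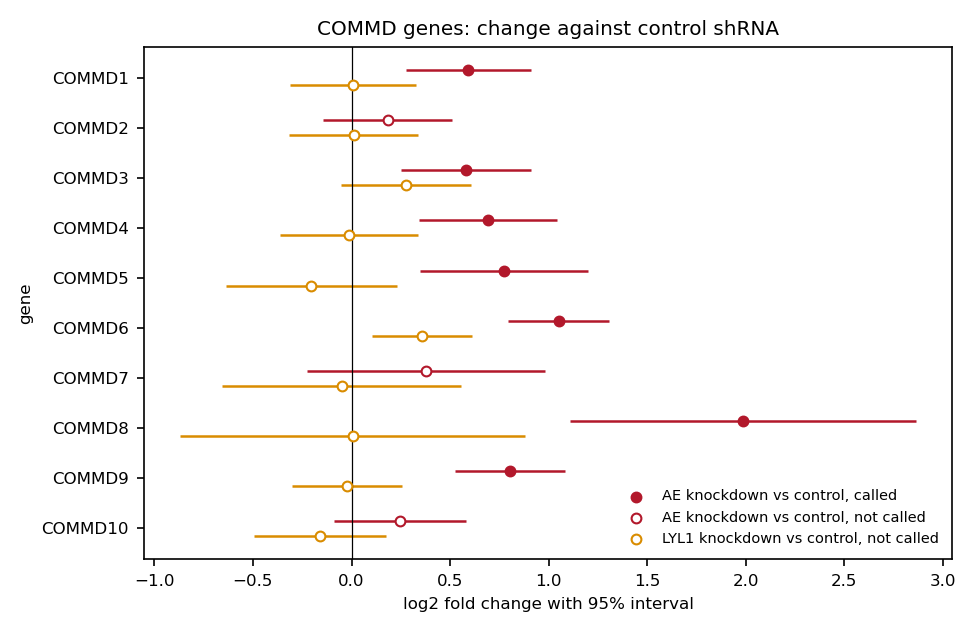
Log2 fold change of each COMMD gene with its 95% interval, for AE knockdown against control (red) and LYL1 knockdown against control (orange); filled points were called at an edgeR adjusted p below 0.05. The 7 filled points are all red and lie between 0.58 and 1.98, and the orange points lie between -0.20 and 0.36.

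With LYL1 knockdown the members had log2 fold changes of -0.20 to 0.36 against control and a median of -0.003, against 0.005 for all genes tested. The widest 95% interval was that of COMMD8, -0.87 to 0.88, and a p above the threshold does not show that levels were alike. The model took 1 spread per gene from all 9 libraries, so these intervals and p-values also carry the spread of the AE knockdown libraries. In the same way, those of AE knockdown against control also carry the spread of the LYL1 knockdown libraries. For COMMD8 the SE was 0.39 with LYL1 knockdown and 0.40 with AE knockdown. No member was called by edgeR, DESeq2 or limma-voom, and 1 of 10 (COMMD6) had an unadjusted p below 0.05. This comparison called 0.0136% of all genes tested, and 4.82% had an unadjusted p below 0.05. The comparison uses the same control libraries as the one with AE knockdown, so the values of both are given side by side and not correlated.

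COMMD6 was at 45.1, 46.5 and 49.1 CPM with shRNAs 538, 540 and 542, against 36.7, 36.5 and 36.6 CPM in the control libraries. All 3 lay above all controls, and the log2 fold change came to 0.36 (SE 0.12, edgeR adjusted p = 0.789). COMMD3 was the other member without overlap, at 17.3, 17.4 and 18.4 CPM with LYL1 knockdown, against 14.9, 15.4 and 13.4 CPM in controls (log2 fold change 0.28, edgeR adjusted p = 1.00). Of all genes tested, 8.41% lay above the controls in this way. COMMD8 was at 12.1, 14.7 and 7.33 CPM with shRNAs 538, 540 and 542, so that the first 2 were above all controls and the last below them.

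Library by library, the median log2 ratio of the 10 members to the control mean was 0.52, 0.58 and 0.78 in AE knockdown replicates 1, 2 and 3, and 9 members were above all 3 controls in each. Of all genes tested, 41.8%, 40.2% and 44.6% were above all controls in AE knockdown replicates 1, 2 and 3. The member not above all controls differed: COMMD7 in replicate 1, COMMD10 in replicate 2 and COMMD2 in replicate 3. Replicate 3 was the highest of the AE knockdown libraries for 6 members, replicate 1 for COMMD6 and COMMD9, and replicate 2 for COMMD1 and COMMD2. With shRNAs 538 and 540 the same median was 0.08 and 0.16, and 5 and 6 members were above all controls, against 33.3% of all genes tested in each. With shRNA 542, the library with the lowest LYL1 level, it was -0.22, and 7 of 10 members were below all controls, against 35.5% of all genes tested.

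**Figure D3:**
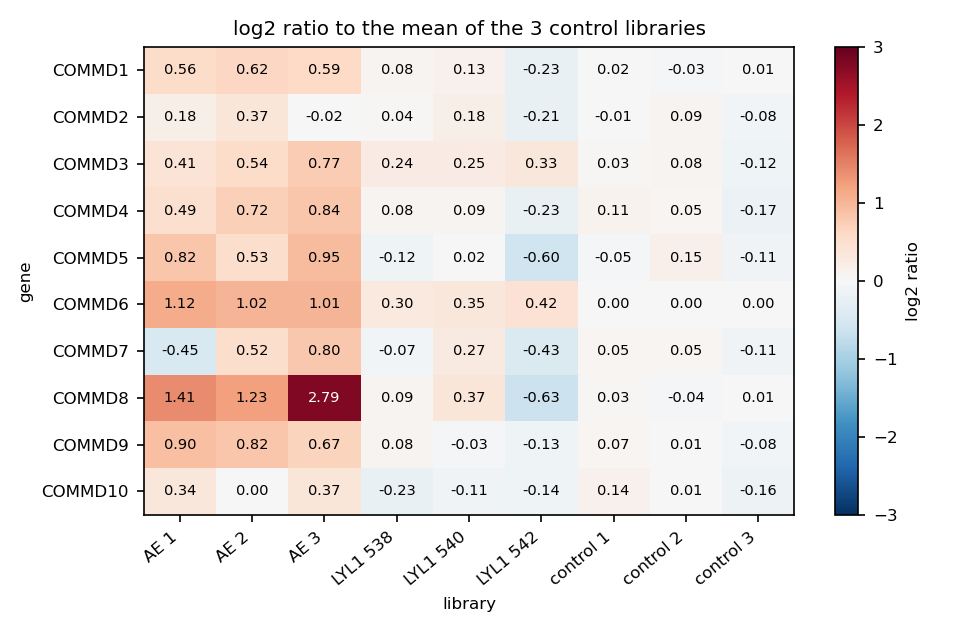
Log2 ratio of each COMMD gene (rows) in each library (columns) to the mean of the 3 control libraries, printed in each cell and coloured from blue (lower) to red (higher). Most AE knockdown cells are above 0, the highest being COMMD8 in replicate 3 at 2.79, while the LYL1 knockdown cells lie between -0.63 and 0.42.

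Set directly against LYL1 knockdown, AE knockdown gave higher levels of 6 members, COMMD1, COMMD4, COMMD5, COMMD6, COMMD8 and COMMD9, and lower levels of none. Of all genes tested 20.4% were called in this comparison, 10.7% as higher and 9.7% as lower. The log2 difference was 1.98 for COMMD8 (SE 0.40, edgeR adjusted p = 0.00962) and 0.98 for COMMD5 (SE 0.20, edgeR adjusted p = 0.00866). For COMMD6, which also stood above the controls with LYL1 knockdown, the difference of 0.69 was called (edgeR adjusted p = 0.00457). COMMD3 was not called, at 0.30 with a 95% interval of -0.02 to 0.63 (edgeR adjusted p = 0.163), although its AE knockdown libraries lay above all LYL1 knockdown libraries. In all 8 members lay above without overlap, against 18.2% of all genes tested. Without shRNA 542 the calls of COMMD1 (0.47, edgeR adjusted p = 0.0657) and COMMD4 (0.60, edgeR adjusted p = 0.0514) were lost, and without AE knockdown replicate 3 the difference of COMMD8 was 1.303.

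Levels of different members can be compared once divided by transcript length. Per kilobase of the longest coding transcript, COMMD6 was the most abundant member with AE knockdown, at 42.2 ± 1.90 CPM per kilobase, followed by COMMD8 at 30.7 ± 19.7, COMMD4 at 30.3 ± 3.67, COMMD7 at 29.7 ± 11.8 and COMMD1 at 27.7 ± 0.60 CPM per kilobase (SD, n = 3 each). These 5 overlapped with their neighbours in the order. COMMD9 followed at 24.0 ± 1.90 CPM per kilobase, and COMMD10, COMMD3, COMMD2 and COMMD5 lay between 13.3 and 17.9. In the LYL1 knockdown libraries COMMD6 was again first at 26.2 ± 1.12 CPM per kilobase and overlapped with COMMD7 at 22.01 ± 5.30, while COMMD8 at 7.75 ± 2.55 and COMMD5 at 6.73 ± 1.43 were the lowest. In the control libraries COMMD7 came first at 22.8 ± 1.48 CPM per kilobase, then COMMD6 at 20.4 ± 0.05, and COMMD5 at 7.77 ± 0.77 and COMMD8 at 7.74 ± 0.19 again came last and overlapped. By group mean, COMMD8 thus stood 2nd of 10 with AE knockdown, 9th with LYL1 knockdown and 10th in the controls. Its AE knockdown values ran from 18.2 to 53.4 CPM per kilobase, the highest in replicate 3, which raised the mean. Per kilobase of all annotated exons COMMD8 stood 2nd with AE knockdown and 6th in both other groups, again by group mean. Other ranks also depended on the length used: with AE knockdown COMMD4 stood 3rd per kilobase of the longest coding transcript and 10th per kilobase of all annotated exons, and COMMD2 stood 9th and 4th by the same lengths.

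The COMMD rows together took 0.0395% to 0.0438% of counts in the AE knockdown libraries, 0.0246% to 0.0305% in the LYL1 knockdown libraries and 0.0253% to 0.0277% in the controls. Ribosomal protein rows, as defined above, were also a larger share of the AE knockdown libraries, at 7.95%, 7.99% and 12.0%. They took 4.69% to 6.07% with LYL1 knockdown and 5.39% to 5.53% in the controls. The part of these rows in the COMMD values was not tested. In a fit corrected for gene length and GC content, 5 members were called, as were 20.4% of all genes tested, 11% as higher. The median log2 fold change of all 10 members was 0.44 in that fit. COMMD1 (0.33, edgeR adjusted p = 0.119) and COMMD3 (0.37, edgeR adjusted p = 0.0738) lost their call in it.

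Not all other parts of Commander were called, and neither were all members of the ring. Over all genes tested 21.8% were called, 11.4% as higher. Lists of 3 genes are too short to show a difference from the ring. Of the CCC partners 1 of 3 was called higher with AE knockdown: CCDC22, the coiled-coil scaffold of the ring, was at 26.1, 20.01 and 34.5 CPM with AE knockdown, against 12.4, 14.1 and 10.7 CPM in controls. The groups did not overlap and the log2 fold change came to 1.11 (SE 0.21, edgeR adjusted p = 0.0072). CCDC93, which binds CCDC22, was at 87.7 ± 1.68 CPM with AE knockdown and 94.4 ± 1.65 CPM in controls (SD, n = 3 each, log2 fold change -0.11, edgeR adjusted p = 0.581). All AE knockdown libraries lay below all controls for CCDC93, as for 3268 of the 14741 genes tested. DENND10 was at 18.5 ± 4.53 CPM with AE knockdown and 24.2 ± 2.01 CPM in controls (log2 fold change -0.40, edgeR adjusted p = 0.206).

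None of the 3 Retriever genes was called, against 21.8% of all genes tested. VPS35L, its central subunit, was at 5.69, 4.30 and 10.7 CPM with AE knockdown, against 3.93, 3.84 and 4.24 CPM in controls. All AE knockdown libraries were above the controls, replicate 3 by far the most, and the log2 fold change of 0.77 was not called (SE 0.32, edgeR adjusted p = 0.101). It was 0.31 without replicate 3, and 1.02 and called without replicate 2 (edgeR adjusted p = 0.0255). VPS26C and VPS29 had log2 fold changes of 0.27 and 0.18 (edgeR adjusted p = 0.193 and 0.503). The 3 genes of Retromer, the related sorting complex, lay between -0.04 and 0.04, none of them called.

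Among the genes that act beside Commander, calls went both ways. So they did over all genes tested, of which 21.8% were called, 11.4% as higher and 10.4% as lower. Lists this short cannot be told apart from those shares. Of 7 sorting nexins tested, SNX17, the adaptor that hands cargo to Retriever, was higher at 107, 100 and 112 CPM with AE knockdown, against 65.0, 60.6 and 59.2 CPM in controls (log2 fold change 0.79, SE 0.14, edgeR adjusted p = 0.00575). SNX27, the adaptor of Retromer, was lower (log2 fold change -0.63, edgeR adjusted p = 0.0489). Of 9 WASH complex and capping genes, which build actin on endosomes, WASHC3 was higher (1.04, edgeR adjusted p = 0.0178) and CAPZB lower (-0.53, edgeR adjusted p = 0.043).

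Genes of the functions first linked to COMMD1 were also mixed, as were all genes tested (21.8% called, 11.4% as higher and 10.4% as lower). These lists are likewise too short to be told apart from those shares. Of 13 copper handling genes tested, ATOX1, the chaperone that brings copper to the export pumps, was higher (0.64, edgeR adjusted p = 0.0127), while the pump ATP7B (-0.73, edgeR adjusted p = 0.032) and the metallothionein MT2A (-0.97, edgeR adjusted p = 0.0345) were lower. None of the 8 NF-kB subunits and inhibitors was called; the nearest was RELB at 0.75 (edgeR adjusted p = 0.0824). Of 11 cullin ligase parts, RBX1, the RING subunit, was higher (0.51, edgeR adjusted p = 0.0448) and CUL1 lower (-0.54, edgeR adjusted p = 0.0245). Without a control replicate, SNX17 and CCDC22 kept their calls, and those of SNX27, WASHC3, CAPZB, MT2A, ATP7B, RBX1 and CUL1 were lost; ATOX1 lost its call without control replicate 2 or 3. Without AE knockdown replicate 3 the log2 fold change of WASHC3 was 0.64, and SNX27, CAPZB, ATP7B, MT2A and RBX1 were not called.

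**Figure D4:**
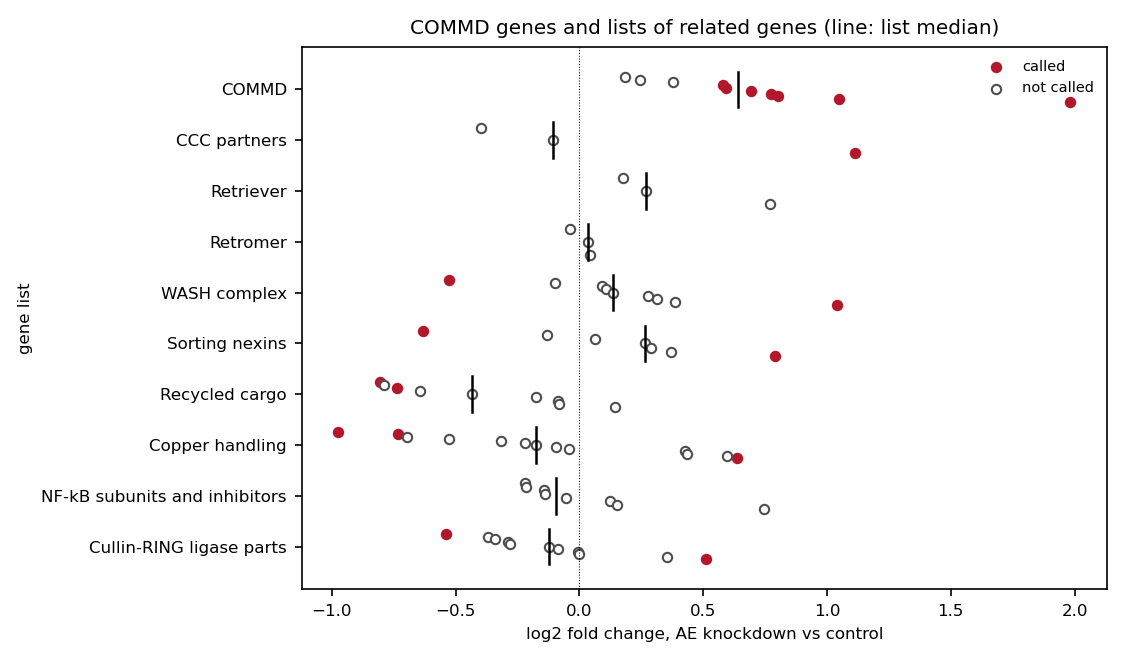
Log2 fold change with AE knockdown against control of each COMMD gene and each gene of the related lists; filled red points were called at an edgeR adjusted p below 0.05, and the vertical line is the list median. The COMMD median is 0.64, and the other medians lie between -0.43 (recycled cargo) and 0.27 (Retriever).

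The genes whose pattern was most like that of the family were found by Pearson correlation across the 9 libraries with the mean standardised log2 CPM of the 10 members, over 14731 other genes tested. They were TBC1D10C (r = 0.987), RPLP0P6 (r = 0.987), NDUFB8 (r = 0.986), MDH1 (r = 0.985) and TMEM256 (r = 0.984). TBC1D10C is a Rab GTPase-activating protein of blood cells, NDUFB8 a subunit of respiratory complex I and MDH1 the cytosolic malate dehydrogenase. RPLP0P6 is a copy of the ribosomal gene RPLP0, and its count is uncertain for that reason. The points share the 9 libraries and their 3 groups, and all 5 genes were higher with AE knockdown than in the controls, with log2 fold changes of 0.67 to 2.59.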

How the data were processed

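The deposited files hold whole-number counts of reads per gene symbol, with no normalisation by the authors, in 9 files of 59648 genes. The submitters' processing notes name the build hg19 and, without roles or sequence, the tools featureCounts 2.0.1, HISAT2 2.2.0, fastp 0.20.1, DESeq2 1.26.0 and SAMtools 1.7. The annotation, the strand setting and the handling of multiply mapped reads are not given in the sources used here. In 6 files 5 gene names carried a decimal suffix, which was removed. Genes were filtered with filterByExpr by group, scaled by TMM and tested in edgeR 4.0.16 under R 4.3.3 (quasi-likelihood F test, robust, all 9 libraries in one model; limma 3.58.1), with Benjamini-Hochberg adjustment over 14741 genes and a call at an adjusted p below 0.05. The fit was tested on simulated data with few changed genes and, unlike in these libraries, the same spread in every group. With AE knockdown against control it called 6% of 1.5-fold, 65.7% of 2-fold and 95.5% of 4-fold changes, and 6 of 14301 unchanged genes. SE is the size of the log2 fold change divided by the square root of F. Lengths and GC came from GENCODE 29 by symbol (98.5% of genes tested). Replicates of 1 group differed by more than sampling noise (at least 3.62 times, as chi-square per degree of freedom). The members and lists were chosen with earlier results of these data known. Named genes were all members, the knockdown targets, BMI1, the CCC and Retriever genes, up to 4 genes per other list with the smallest adjusted p with AE knockdown, and the 5 genes most like the family; among the list genes the text gives those called, RELB and the markers of other cells. Single genes of the recycled cargo list are not reported here. Alternatives were other scalings and filters, DESeq2 1.42.0, limma-voom, other quasi-likelihood settings, the 6 libraries compared alone, a threshold of 0.01, a length and GC correction, a fit with replicate number as a block, and fits with 1 library left out.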

Additional observations from a re-analysis of the deposited data

Results flagged for a closer look

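The difference between the knockdowns was tested as a contrast of the same model, and 6 members differed between them. Of all genes tested, 20.4% were called in this contrast, 10.7% as higher. The log2 difference, AE knockdown over LYL1 knockdown, was 0.58 for COMMD1 (edgeR adjusted p = 0.0188), 0.70 for COMMD4 (edgeR adjusted p = 0.0132), 0.98 for COMMD5 (edgeR adjusted p = 0.00866), 0.69 for COMMD6 (edgeR adjusted p = 0.00457), 1.98 for COMMD8 (edgeR adjusted p = 0.00962) and 0.83 for COMMD9 (edgeR adjusted p = 0.00372). All 3 AE knockdown libraries lay above all 3 LYL1 knockdown libraries for each of the 6, as they did for 18.2% of all genes tested. COMMD5, COMMD6, COMMD8 and COMMD9 kept this call in all 21 alternatives, in which 4 to 7 members and 5.32% to 26.7% of all genes tested were called. Groups of 3 libraries are too small for a test of single libraries as outliers.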

How the results depend on the processing

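With AE knockdown against control, 3 to 8 members were called over 22 alternatives, against 7 in the reported fit, and COMMD6, COMMD8 and COMMD9 were called in every one. The count was 3 at an adjusted p below 0.01 (5.52% of all genes tested were called), 5 without the low-count filter (8.92%), 5 with the length and GC correction (20.4%), and 3 to 8 when 1 library was left out. It was 4, 3 and 3 without control replicate 1, 2 or 3, with 7.2%, 6.31% and 6.89% of all genes called, and 8 without AE knockdown replicate 1, with 20.3% called. Calls over all genes also fell without a control replicate, to 1096, 954 and 1050 without control replicate 1, 2 or 3, against 3214 with all libraries; the cause was not tested. The log2 fold change of COMMD8 ranged from 1.31 to 2.25, with adjusted p up to 0.0472. Against LYL1 knockdown, 4 to 7 members were called over 21 alternatives, with 5.32% to 26.7% of all genes called. With LYL1 knockdown against control no member was called in 21 alternatives, with 0.00657% to 0.231% of all genes called.

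With replicate number as a block, the AE comparison called 3 members and 1629 genes, 11.4% of those tested. The labels do not say whether equal numbers pair the samples. Deviations of control and AE knockdown libraries of the same number correlated at 0.04, -0.01 and 0.01. These values cannot decide it, because the controls differed little from each other (7.57%, against 31.5% with AE knockdown, as a biological coefficient of variation). No paired analysis was possible for LYL1 knockdown because its libraries carry shRNA numbers that the controls do not share.

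Signs changed for uncalled values near 0, with the cause not tested. With AE knockdown against control, the length and GC correction gave -0.0465 for COMMD10, 0.1182 for CCDC93 and -0.1012 for VPS29, and VPS29 ranged from -0.0148 to 0.2909 when 1 library was left out. With LYL1 knockdown against control, COMMD4 was 0.0054 with upper-quartile scaling, 0.0065 with library totals only and 0.0229 with the length and GC correction. COMMD1 and COMMD2 were -0.0123 and -0.0074 without the filter, and -0.0251 and -0.0489 with the correction. COMMD8 was -0.0098 without the filter, -0.0041 in DESeq2, -0.0337 in limma-voom and -0.0926 with the correction. When 1 library was left out, the log2 fold change with LYL1 knockdown ranged from -0.0637 to 0.1126 for COMMD1, -0.0821 to 0.1145 for COMMD2, -0.0908 to 0.0861 for COMMD4, -0.2418 to 0.1108 for COMMD7, -0.2216 to 0.2396 for COMMD8 and -0.08 to 0.03 for COMMD9. Among the 10 members, the lowest count in any library was 147, for COMMD8 with shRNA 542.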
